A study of Mus musculus with 14 samples.

Results

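Voltage-gated sodium and calcium channel genes were taken from the deposited expression table by their symbols, as the Scn genes for sodium channel alpha and beta subunits and the Cacna, Cacnb and Cacng genes for calcium channel subunits. The table held 39 such genes among 18128 features with a value in at least 1 library, 13 for sodium and 26 for calcium channels. Of these, 19 encode pore-forming subunits and 20 encode auxiliary subunits. The libraries came from primary cortical neuron cultures of wild-type C57BL/6 mice, treated for 1 h at day 12 in vitro, and total RNA was sequenced after ribosomal depletion. Bicuculline, which blocks GABA-A receptors and so raises network firing, was given at 20 µM (3 libraries). Another 3 libraries came from cultures given 4% (v/v) NMP peptides, which derive from the neuronal membrane proteasome, together with 100 µM APV, an antagonist of NMDA receptors. NMP peptides alone at 4% had 3 libraries, and NMP peptides cleaved with proteinase K (PK) at 4% had 3 more. The control was 1% DMSO with 2 libraries, replicates 2 and 3, and the labels list this solvent for the control alone. APV was not given without peptides in any group analysed here, so in comparisons with NMP peptides plus APV an effect of APV by itself and an effect that needs the peptides cannot be told apart.

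Voltage-gated sodium channels open on depolarisation and carry the rising phase of the action potential. Voltage-gated calcium channels turn the same depolarisation into calcium entry, which drives transmitter release at terminals (P/Q and N types), dendritic signalling and activity-dependent transcription (L type), and burst firing (T type). The pore is 1 large alpha subunit, and auxiliary beta and alpha2delta subunits set its trafficking and gating. Several members of the gamma family are known as TARPs, which escort AMPA receptors to the synapse.

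Values were read as quantile-normalised log2 signals per exon length, a scale inferred from the values themselves. Levels set side by side between genes rest on that scale. The read depth behind them is unknown. Each library held values for 15824 to 16231 features, and the 10877 genes with the higher means were tested. Of the 39 channel genes, 27 were tested, 11 pore-forming and 16 auxiliary, and 12 fell below the filter. The series describes its replicates as biological but does not name the unit that was replicated, so p-values measure only the spread between these libraries. Excitatory, inhibitory and astrocyte markers were all present, with 7 of 7, 8 of 8 and 9 of 9 tested. Of the oligodendrocyte lineage markers 7 of 8 were tested, while 0 of 6 microglial and 0 of 5 endothelial or mural markers passed the filter. In these bulk samples, fewer cells of a type and less RNA per cell cannot be told apart.

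The cultures carried channel mRNAs known from central neurons, and which cells of the culture held them was not measured. The highest mean level over the 14 libraries was that of Scn3b (chromosome 9, 40269216 to 40291618), a sodium channel beta subunit that modulates gating, at 5.82 on the log2 scale. Its libraries had 5.80, 5.89 and 5.66 in bicuculline, 5.98, 5.80 and 5.98 in NMP peptides plus APV, 5.61, 5.86 and 5.82 in NMP peptides, 5.68, 5.90 and 5.83 in PK-cleaved NMP peptides and 5.87 and 5.74 in DMSO. These ranges overlap between each pair of groups. The TARP gene Cacng4 (chromosome 11, 107732357 to 107794706) followed at 5.42, with 5.38, 5.44 and 5.31 in bicuculline, 5.60, 5.38 and 5.53 in NMP peptides plus APV, 5.26, 5.40 and 5.46 in NMP peptides, 5.17, 5.45 and 5.65 in PK-cleaved NMP peptides and 5.51 and 5.32 in DMSO. Cacng7 (chromosome 7, 3332027 to 3368221), another TARP gene, averaged 5.16, with 5.23, 5.15 and 5.10 in bicuculline, 5.17, 5.07 and 5.14 in NMP peptides plus APV, 5.06, 5.17 and 5.17 in NMP peptides, 5.13, 5.15 and 5.26 in PK-cleaved NMP peptides and 5.19 and 5.18 in DMSO. The groups thus lay close together for these highly expressed genes, whose levels compare with a median of 3.30 over all tested genes. Levels of 37 channel genes in each library are drawn by subunit class in the plot of channel levels.

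**Figure D1:**
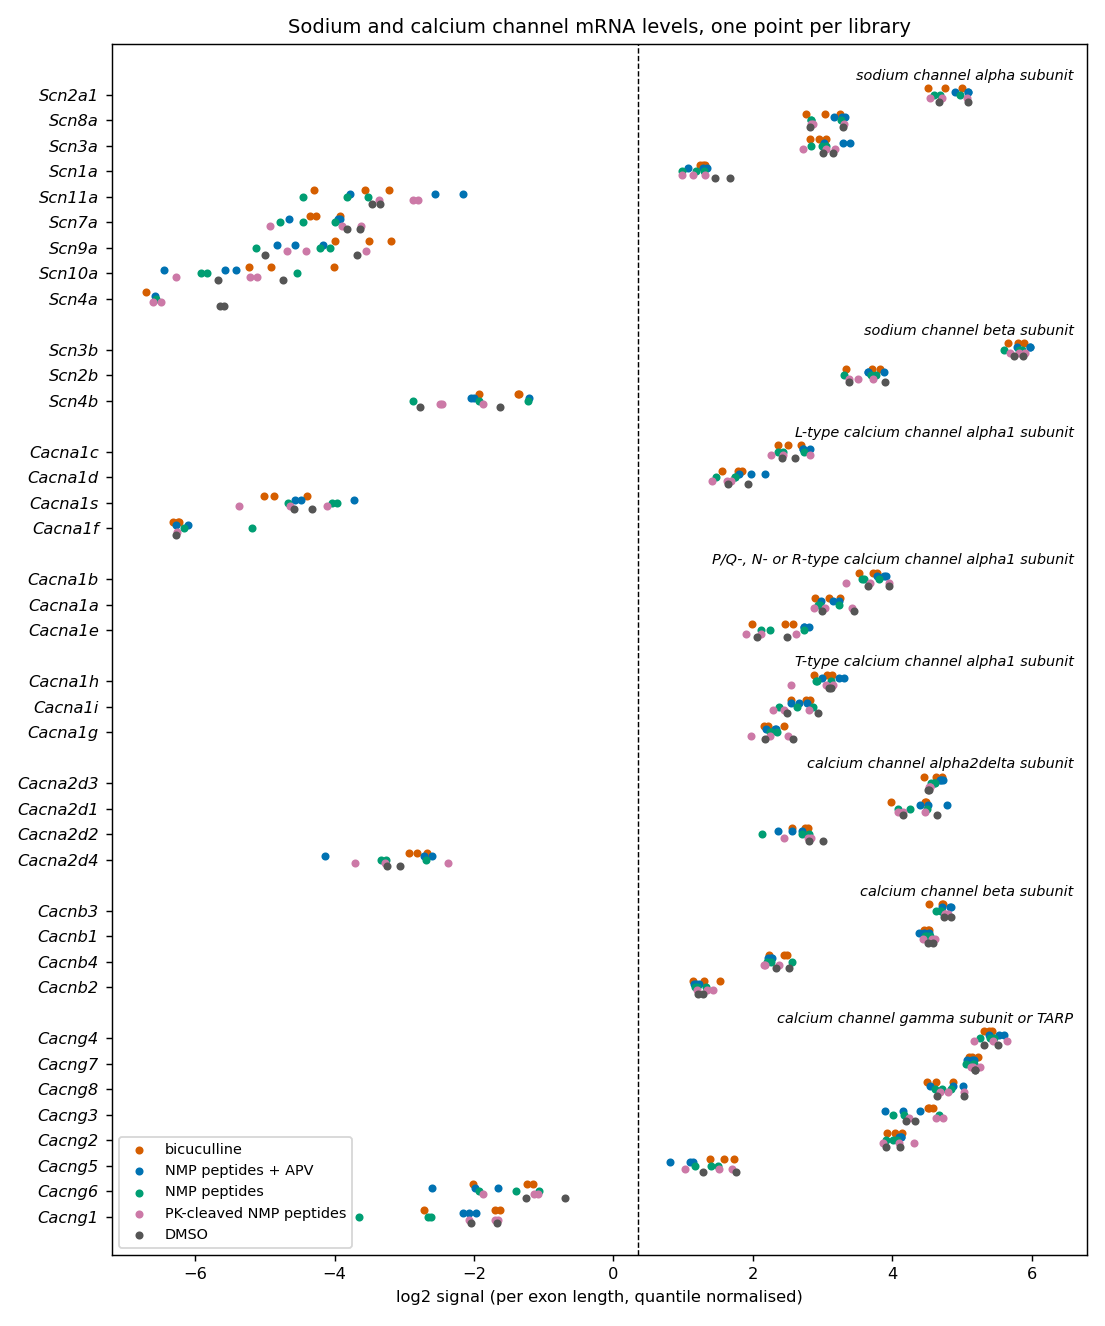
Log2 signal (x axis, per exon length) of 37 channel genes (rows, by subunit class), with 1 point per library coloured by treatment; the dashed line marks 0.35, the lowest mean among the tested genes. Among the tested genes Scn3b lies furthest right at a mean of 5.82, 11 genes lie left of the line, Cacna1f has a value in 9 libraries and Scn4a in 7, and Scn2a1 is drawn for reference.

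Among sodium channel alpha subunits, Scn8a, which is concentrated at the axon initial segment and nodes, averaged 3.06 and Scn3a, prominent in the immature brain, averaged 3.03. These neighbours were not separated, since Scn8a was above Scn3a in 9 of 14 libraries. Scn1a, the main sodium channel of fast-spiking inhibitory neurons, averaged 1.25 and lay below Scn3a in 14 of 14 libraries by a mean of 1.78 on the log2 scale. The row Scn2a1 bears the older symbol of Scn2a, the main sodium channel of young excitatory neurons, and falls outside the symbol rule. It had the highest level of the sodium channel alpha subunits, at 4.83, and was above Scn8a in 14 of 14 libraries by a mean of 1.77 on the log2 scale. Of the beta subunit genes Scn3b averaged 5.82 and Scn2b 3.62.

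Calcium channel pores of the presynaptic types were led by the N-type gene Cacna1b at 3.72, above the P/Q-type gene Cacna1a at 3.11 and the R-type gene Cacna1e at 2.40 in 14 of 14 libraries. The T-type genes Cacna1h (3.03), Cacna1i (2.64) and Cacna1g (2.28) also kept 1 order in 14 of 14 libraries. Of the L-type genes, Cacna1c averaged 2.56 and Cacna1d 1.74, again in the same order in 14 of 14 libraries. The highest auxiliary genes lay above the highest calcium channel pore. Among alpha2delta subunits, Cacna2d3 (4.59) and Cacna2d1 (4.35) were not fully separated, with Cacna2d3 higher in 12 of 14 libraries. The beta subunit genes ran Cacnb3 (4.73), Cacnb1 (4.51), Cacnb4 (2.32) and Cacnb2 (1.26), each above the next in 14 of 14 libraries. Of the TARP genes, Cacng8 (4.77) was above Cacng3 (4.36) in 13 of 14 libraries and Cacng3 above Cacng2 (4.05), also called stargazin, in 12 of 14.

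The 12 genes below the filter included Scn4a, Scn7a, Scn9a, Scn10a, Scn11a, Scn4b, Cacna1s, Cacna1f, Cacna2d4, Cacng1 and Cacng6. They include the genes known for skeletal muscle (Scn4a and Cacna1s), peripheral sensory neurons (Scn9a, Scn10a and Scn11a) and retina (Cacna1f). The lowest was Scn4a (chromosome 11, 106317545 to 106365559) with a mean of −6.31 over 7 libraries. In that gene the bicuculline library with a value had −6.71, the NMP peptides plus APV library −6.58, the NMP peptides library −6.57, the PK-cleaved libraries −6.49 and −6.61, and the DMSO libraries −5.65 and −5.59. Cacna1f (chromosome X, 7607103 to 7635196) had −6.23, −6.25 and −6.32 in bicuculline, −6.27 and −6.11 in NMP peptides plus APV, −5.19 and −6.17 in NMP peptides, −6.26 in PK-cleaved NMP peptides and −6.28 in DMSO, with no value in the other libraries. Scn10a (chromosome 9, 119608456 to 119719322) had −4.91, −4.00 and −5.23 in bicuculline, −6.45, −5.58 and −5.42 in NMP peptides plus APV, −5.83, −5.91 and −4.54 in NMP peptides, −6.27, −5.21 and −5.12 in PK-cleaved NMP peptides and −5.68 and −4.74 in DMSO. At such low signal, replicates of 1 group lay up to several-fold apart. With no filter, 10 of the 12 had a value in each library and were tested among 14388 genes. The smallest limma adjusted p of these was 0.245, and 7 of 80 tests (8.75%) had an unadjusted p under 0.05, where 6.52% of all tests without the filter did. The smallest unadjusted p was that of Cacng1, a gamma subunit gene known from skeletal muscle, which differed by −1.16 on the log2 scale in NMP peptides against PK-cleaved NMP peptides (SE 0.33, limma adjusted p = 1). Their median SE was 0.44 on the log2 scale, so a difference of several-fold would be needed to stand out.

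After 1 h, no channel gene passed the test in any of the 8 comparisons (limma with Benjamini-Hochberg adjustment over all tested genes, adjusted p under 0.05). In bicuculline against DMSO 0 of 27 channel genes were called, where 0.469% of all tested genes were, and 0 had an unadjusted p under 0.05, against 3.14% of all tested genes. In the same comparison the immediate-early gene Npas4, a transcription factor induced by activity, was 4.33 higher on the log2 scale (SE 0.31, limma adjusted p = 5.68e-06). The activity response was thus measured in these libraries. With 0.469% of all tested genes called, 0 calls among 27 genes does not set the channel genes apart from the other genes. With NMP peptides against DMSO 0 of 27 were called (0.0184% of all tested genes) and 1 had an unadjusted p under 0.05 (2.02%). For PK-cleaved NMP peptides against DMSO the counts were 0 called, where 0% of all tested genes were, and 1 with an unadjusted p under 0.05 (1.05%). The gene was Scn1a in both. NMP peptides against PK-cleaved NMP peptides gave 0 of 27 called (0.0827%) and 0 with an unadjusted p under 0.05 (1.65%), and bicuculline against NMP peptides gave 0 called (0.175%) and 0 with an unadjusted p under 0.05 (2.12%).

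Comparisons with NMP peptides plus APV held more genes called over the whole table, and again no channel gene. Against DMSO 0 of 27 were called (0.625% of all tested genes) and 3 had an unadjusted p under 0.05 (11.5%). Against NMP peptides 0 of 27 were called (1.43%) and 2 had an unadjusted p under 0.05 (15.8%). Against PK-cleaved NMP peptides 0 of 27 were called (1.39%) and 5 had an unadjusted p under 0.05 (15.6%). With 27 genes tested, 1 gene makes the whole count in both comparisons of peptides with DMSO, and the 3 comparisons of NMP peptides plus APV share its libraries.

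The 95% intervals bound each effect singly, with no adjustment over the 216 tests. For each of the 27 genes the 95% interval stayed within ±1 on the log2 scale in each of the 8 comparisons, and the outermost bounds were −0.93 and 0.98. The difference itself passed 0.5 in size in 2 of 216 tests. The median difference over the 27 genes was −0.03 in bicuculline against DMSO, −0.08 in NMP peptides against DMSO, −0.06 in PK-cleaved NMP peptides against DMSO and 0.03 in NMP peptides plus APV against DMSO. It was 0.11 in NMP peptides plus APV against NMP peptides and 0.08 in NMP peptides plus APV against PK-cleaved NMP peptides. NMP peptides against PK-cleaved NMP peptides had −0.02 and bicuculline against NMP peptides 0.03. Over all tested genes these medians were −0.03, −0.04, −0.04, −0.05, −0.01, −0.02, 0.001 and 0.004 in the same order. Leaving out single libraries moved the channel median in bicuculline against DMSO between −0.19 and 0.08, the second value being that without DMSO replicate 3. It was also above 0, at 0.03, without bicuculline replicate 2. The median SE of a channel gene was 0.15 on the log2 scale in comparisons with DMSO and 0.13 in the others. Libraries of the compared groups did not overlap for 4 of 27 channel genes in bicuculline against DMSO (17.8% of all tested genes) for 4 in NMP peptides against DMSO (17.4%), for 1 in PK-cleaved NMP peptides against DMSO (11%) and for 8 in NMP peptides plus APV against DMSO (29.8%). They did not overlap for 2 of 27 in NMP peptides against PK-cleaved NMP peptides (5.21%), for 6 in NMP peptides plus APV against NMP peptides (21.8%), for 3 in NMP peptides plus APV against PK-cleaved NMP peptides (20.2%) and for 0 in bicuculline against NMP peptides (4.7%).

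The direction of the differences was counted in the same way. Differences from DMSO were above 0 for 8 of 27 channel genes in bicuculline (37.1% of all tested genes), 14 in NMP peptides plus APV (36.3%), 4 in NMP peptides (35.3%) and 8 in PK-cleaved NMP peptides (34%). They were above 0 for 18 of 27 in NMP peptides plus APV against NMP peptides (46.5%) and for 19 in NMP peptides plus APV against PK-cleaved NMP peptides (45.5%). The counts were 13 of 27 in NMP peptides against PK-cleaved NMP peptides (50.5%) and 21 of 27 in bicuculline against NMP peptides (52.5%).

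**Figure D2:**
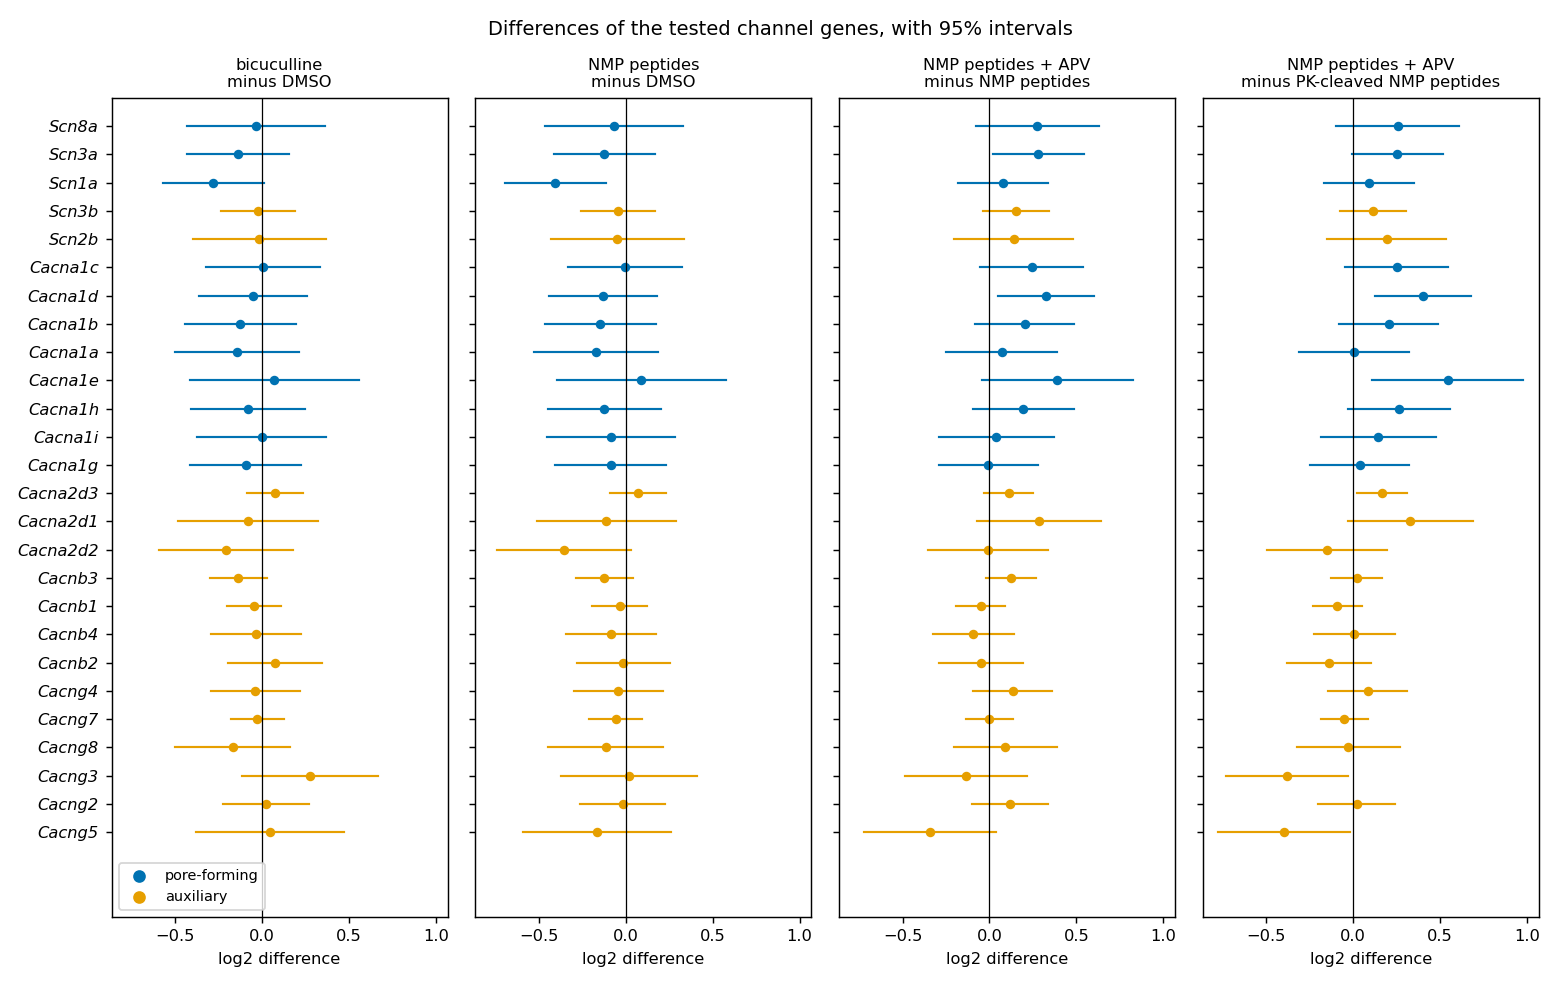
Log2 difference (x axis) of 26 tested channel genes (rows) in 4 comparisons (panels), with points for the estimate and lines for the 95% interval, pore-forming subunits in blue and auxiliary subunits in orange. Intervals stay within ±1, and 10 of 11 and 11 of 11 pore-forming genes lie right of 0 in the panels with NMP peptides plus APV. The comparison of NMP peptides plus APV with DMSO is not drawn.

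Scn1a (chromosome 2, 66270781 to 66440837) had its highest levels in DMSO. Its libraries had 1.31, 1.29 and 1.24 in bicuculline, 1.28, 1.07 and 1.35 in NMP peptides plus APV, 0.98, 1.30 and 1.18 in NMP peptides and 0.99, 1.14 and 1.31 in PK-cleaved NMP peptides, against 1.45 and 1.67 in DMSO. Both DMSO libraries lay above the 12 others. The log2 difference was −0.42 in PK-cleaved NMP peptides against DMSO (SE 0.14, limma adjusted p = 1) and −0.41 in NMP peptides against DMSO (SE 0.14, limma adjusted p = 0.971). In NMP peptides plus APV it was −0.33 (SE 0.14) and in bicuculline −0.28 (SE 0.14). The 4 comparisons share the same 2 DMSO libraries, and the limma adjusted p was above the threshold in each.

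Cacna1d (chromosome 14, 30039941 to 30491156) encodes the L-type pore that opens at lower voltages and contributes to pacemaking. It had the smallest p of the 27 channel genes that passed the filter. Its NMP peptides plus APV libraries had 1.97, 1.80 and 2.17, against 1.48, 1.74 and 1.74 in NMP peptides and 1.41, 1.64 and 1.68 in PK-cleaved NMP peptides. Each library with APV lay above the 6 libraries with peptides alone. The bicuculline libraries had 1.85, 1.56 and 1.78, against 1.64 and 1.93 in DMSO. NMP peptides plus APV differed by 0.40 on the log2 scale from PK-cleaved NMP peptides (SE 0.13, limma adjusted p = 0.157) and by 0.32 from NMP peptides (SE 0.13, limma adjusted p = 0.252). Exons of Cacna1d share 4.67% of their bases with Chdh on the opposite strand, and whether counting used strand is not given in the sources used here.

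Cacna1e (chromosome 1, 154390806 to 154884785), the R-type pore, had the largest SD within groups of the tested channel genes, at 0.29. Its libraries had 2.73, 2.80 and 2.73 in NMP peptides plus APV, against 2.25, 2.73 and 2.11 in NMP peptides and 1.90, 2.62 and 2.11 in PK-cleaved NMP peptides. The bicuculline libraries had 2.58, 1.98 and 2.47, against 2.06 and 2.49 in DMSO. The 3 libraries with APV lay close together, and libraries of each other group lay further apart. NMP peptides replicate 2 reached the level of the APV libraries to within rounding. The difference from PK-cleaved NMP peptides was 0.54 on the log2 scale (SE 0.20, 95% interval 0.11 to 0.98, limma adjusted p = 0.218).

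Cacng5 (chromosome 11, 107874604 to 107915055), a TARP gene, was lowest with APV. Its libraries had 1.10, 0.82 and 1.13 in NMP peptides plus APV, against 1.40, 1.50 and 1.17 in NMP peptides, 1.52, 1.70 and 1.02 in PK-cleaved NMP peptides and 1.29 and 1.76 in DMSO. The APV libraries did not overlap those of NMP peptides or DMSO, and overlapped those of PK-cleaved NMP peptides. Bicuculline libraries had 1.58, 1.38 and 1.74. The difference of NMP peptides plus APV from DMSO was −0.50 on the log2 scale (SE 0.20, limma adjusted p = 0.347) and from PK-cleaved NMP peptides −0.40 (SE 0.18, limma adjusted p = 0.3). Without DMSO replicate 3 the difference from DMSO was −0.27, and the difference from PK-cleaved NMP peptides was −0.26 without replicate 2 of that group and −0.15 with array weights.

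Cacna2d3 (chromosome 14, 28904943 to 29722775) encodes an alpha2delta subunit that helps bring channels to the membrane. Its NMP peptides plus APV libraries had 4.68, 4.72 and 4.70, against 4.62, 4.60 and 4.55 in NMP peptides, 4.53, 4.54 and 4.54 in PK-cleaved NMP peptides and 4.53 and 4.51 in DMSO. The APV libraries lay above the 8 others just named, and the bicuculline libraries, at 4.62, 4.45 and 4.71, spanned them. The difference was 0.17 from PK-cleaved NMP peptides (SE 0.07, limma adjusted p = 0.251) and 0.18 from DMSO (SE 0.07, limma adjusted p = 0.374). With the gene length trend removed, the difference from PK-cleaved NMP peptides was 0.10. Of the other channel genes, Scn3a in NMP peptides plus APV against NMP peptides (0.28, SE 0.12) and Cacng3 in NMP peptides plus APV against PK-cleaved NMP peptides (−0.38, SE 0.16) had an unadjusted p under 0.05, with limma adjusted p of 0.287 and 0.279.

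**Figure D3:**
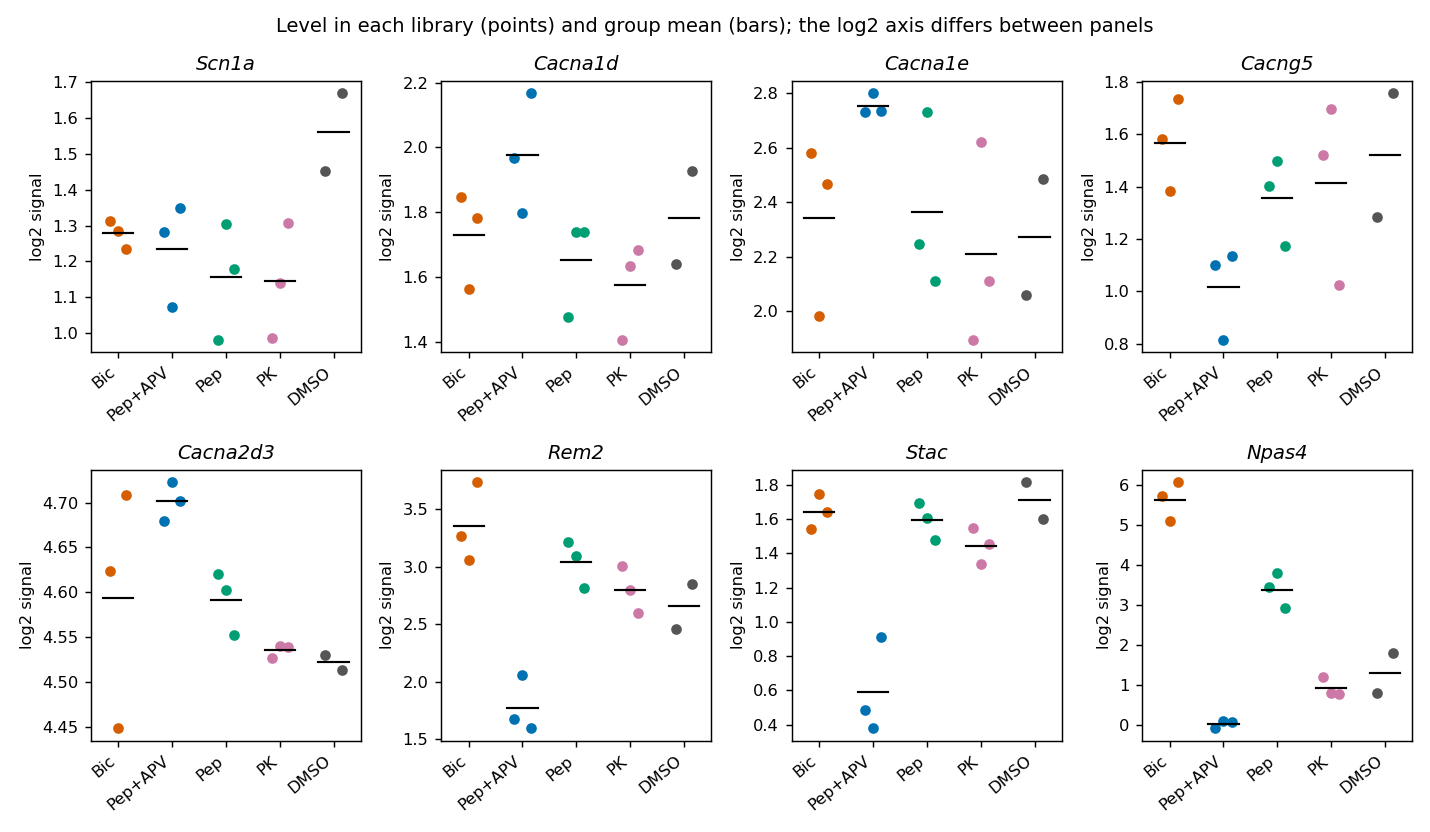
Log2 signal (y axis, scale differs between panels) of 5 channel genes, the channel partners Rem2 and Stac, and Npas4 in each library (points) of the 5 groups, with bars at group means (Bic, bicuculline; Pep+APV, NMP peptides plus APV; Pep, NMP peptides; PK, PK-cleaved NMP peptides). Scn1a is highest in the 2 DMSO libraries, at 1.45 and 1.67, and Rem2 and Stac are lowest in the 3 libraries with APV, at 1.59 to 2.06 and 0.38 to 0.91.

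Levels of pore-forming genes differed together between libraries, also within a group. Their median deviation from each gene's mean was −0.31 in PK-cleaved NMP peptides replicate 1, with 0 of 11 genes above their own mean, and 0.21 in replicate 2 of the same group, with 9 of 11 above. DMSO replicate 2 stood at −0.11 with 2 of 11 above and DMSO replicate 3 at 0.22 with 11 of 11 above. Replicates 1 and 3 of NMP peptides plus APV stood at 0.20 and 0.19 with 11 of 11 above, and replicate 2 at −0.02 with 5 of 11 above. The auxiliary genes, with a median length of 51.4 kb, deviated with the same sign in each of these libraries. Their median was −0.045 and 0.08 in PK-cleaved NMP peptides replicates 1 and 2, with 7 and 14 of 16 above their own mean. In DMSO replicates 2 and 3 it was −0.04 and 0.09, with 6 and 12 of 16 above. Signs differed in bicuculline replicate 3, at 0.01 for auxiliary and −0.02 for pore-forming genes. Pore-forming channel genes are long, with a median of 170.1 kb against 25.2 kb for all tested genes, and 9 of 11 exceed 100 kb. The median deviation of the 1596 other genes over 100 kb had the same sign as that of the pore-forming genes in 12 of 14 libraries. It was −0.12 and 0.08 in PK-cleaved NMP peptides replicates 1 and 2, 0.09 in DMSO replicate 3 and 0.07 and 0.09 in NMP peptides plus APV replicates 1 and 3. The exceptions were DMSO replicate 2, with 0.01 for long genes against −0.11 for pore-forming genes, and PK-cleaved NMP peptides replicate 3, with a long-gene median close to 0 against −0.06. The part of gene length in these deviations was not tested. The median SD within groups was 0.19 for pore-forming genes, 0.14 for auxiliary genes and 0.13 for all tested genes.

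**Figure D4:**
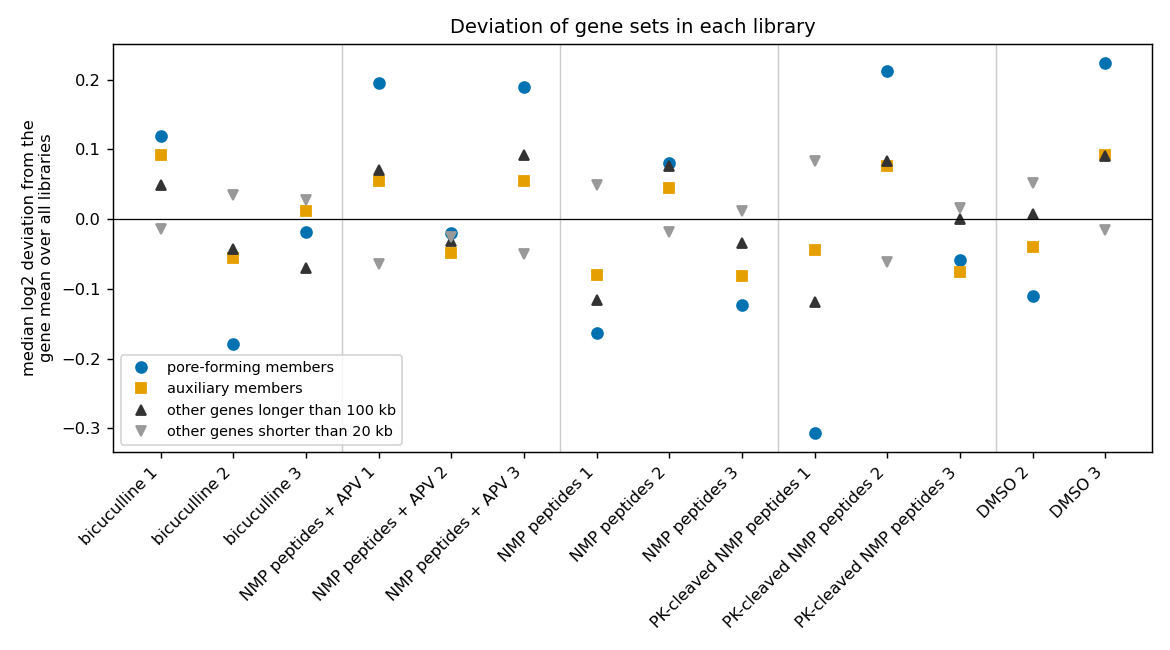
Median log2 deviation from each gene's mean over all libraries (y axis) in each library (x axis, grouped by treatment) for pore-forming and auxiliary channel genes and for other genes longer than 100 kb or shorter than 20 kb. Pore-forming genes range from −0.31 in PK-cleaved NMP peptides replicate 1 to 0.22 in DMSO replicate 3.

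Between groups, 10 of 11 pore-forming genes had a difference above 0 in NMP peptides plus APV against NMP peptides, with a median of 0.20, where 46.5% of all tested genes did. Against PK-cleaved NMP peptides 11 of 11 did, with a median of 0.25, where 45.5% of all tested genes did. The 2 counts share the APV libraries. Of the 16 auxiliary genes 8 were above 0 in each, with medians of 0.04 and −0.01, and of the 1596 other long genes 1041 and 995 were. After a trend on gene length was removed within each library, 8 of 11 with a median of 0.16 and 10 of 11 with a median of 0.19 were above 0. Without PK-cleaved NMP peptides replicate 1 the median against that group was 0.08, with 9 of 11 above 0. Against DMSO, NMP peptides plus APV had 7 of 11 above 0 with a median of 0.07, where 36.3% of all tested genes were. This count ran from 5 to 10 when a library was left out. In the other groups the counts against DMSO turned on 1 library. Above 0 were 2 of 11 in bicuculline, 1 of 11 in NMP peptides and 0 of 11 in PK-cleaved NMP peptides. Without DMSO replicate 3 these were 8, 8 and 7 of 11. No p is given for these counts, because the genes are not replicates.

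Channels work with partner proteins, and 2 partners of calcium channels were lower with APV. The partner list held 37 genes with a value, of which 35 were tested: presynaptic scaffolds, the sodium leak channel complex, FGF homologous factors with the axon initial segment scaffold, AMPA receptor subunits with cornichons, RGK small GTPases, calcium sensors, kinases and adaptors, and ubiquitin ligases. In NMP peptides plus APV against NMP peptides 0 partners rose and 2 fell, Rem2 and Stac, where 0.552% of all tested genes rose and 0.883% fell. Against PK-cleaved NMP peptides 0 rose and the same 2 fell (0.607% rose and 0.781% fell of all tested genes). Against DMSO 0 rose and 1 fell, Stac (0.175% rose and 0.45% fell). In the other 5 comparisons 0 of 35 partners were called by limma, with between 0 and 2 at an unadjusted p under 0.05. Of all tested genes, between 0% and 0.469% were called in these comparisons, and between 1.05% and 3.14% had an unadjusted p under 0.05. The 0 calls thus do not set the partners apart from other genes there.

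Rem2 (chromosome 14, 54476100 to 54480434) encodes an RGK GTPase that binds calcium channel beta subunits, reduces calcium current and is known as an activity-regulated gene of neurons. Its libraries had 1.67, 2.06 and 1.59 in NMP peptides plus APV, against 3.22, 3.09 and 2.82 in NMP peptides and 3.01, 2.80 and 2.59 in PK-cleaved NMP peptides. Bicuculline libraries had 3.27, 3.06 and 3.74, against 2.46 and 2.85 in DMSO. The APV libraries were below each of the 11 others, and the bicuculline libraries above both DMSO libraries. Rem2 fell by 1.27 on the log2 scale in NMP peptides plus APV relative to NMP peptides (SE 0.18, limma adjusted p = 0.00354), to a level 58.5% lower. Relative to PK-cleaved NMP peptides it fell by 1.03 (SE 0.18, limma adjusted p = 0.0133), a call lost without NMP peptides plus APV replicate 1 (adjusted p = 0.0603) or 3 (0.0689) or PK-cleaved NMP peptides replicate 1 (0.0762). The differences from DMSO missed the threshold, with −0.88 in NMP peptides plus APV (SE 0.20, limma adjusted p = 0.072) and 0.70 in bicuculline (SE 0.20, limma adjusted p = 0.433).

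Stac (chromosome 9, 111561437 to 111690588) encodes an adaptor that binds L-type channels and slows their inactivation. Its libraries had 0.48, 0.38 and 0.91 in NMP peptides plus APV, against 1.69, 1.61 and 1.48 in NMP peptides, 1.55, 1.34 and 1.45 in PK-cleaved NMP peptides and 1.82 and 1.60 in DMSO. The bicuculline libraries had 1.54, 1.74 and 1.64. Each APV library was below each of the other 11 libraries. The APV mean of 0.59 was near 0.35, the lowest mean over all libraries among the tested genes, and read depth is unknown. Stac fell by 1.00 on the log2 scale relative to NMP peptides (SE 0.13, limma adjusted p = 0.00216), by 0.85 relative to PK-cleaved NMP peptides (SE 0.13, limma adjusted p = 0.00567) and by 1.12 relative to DMSO (SE 0.15, limma adjusted p = 0.00336). The call against DMSO was lost without DMSO replicate 2 (adjusted p = 0.0532), with only the compared groups (0.0798) and when the 4 libraries highest in Gfap, an astrocyte marker, were left out (0.131). The call against PK-cleaved NMP peptides was lost with only the compared groups (adjusted p = 0.0545) and without those 4 libraries (0.0602). Exons of Stac share 11.3% of their bases with the antisense gene Gm43236.

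Summed levels of inhibitory neuron and astrocyte markers in NMP peptides plus APV did not overlap those of the peptide and DMSO groups. The summed linear signal of the 8 inhibitory neuron markers ran from 464 to 486 in NMP peptides plus APV, against 507 to 592 in NMP peptides, 509 to 563 in PK-cleaved NMP peptides and 505 to 567 in DMSO. Sst has the highest level of this list and so weighs most in the sum, and 6 of the 8 genes were below 0 in NMP peptides plus APV against each of these 3 groups. Dlx1 went the other way in the 3 comparisons, and Gad2 averaged 3.42 in NMP peptides plus APV, against 3.30 in NMP peptides, 3.34 in PK-cleaved NMP peptides and 3.52 in DMSO. The 9 astrocyte markers summed to 414 to 429 in NMP peptides plus APV, against 337 to 399 in NMP peptides, 353 to 383 in PK-cleaved NMP peptides and 381 to 382 in DMSO. Slc1a3 has the highest level of this list and weighs most in the sum. Of the 9 genes, 7 were above 0 against DMSO and 8 against each peptide group. Gfap went the other way, averaging 2.71 in NMP peptides plus APV, against 3.14 in NMP peptides, 2.86 in PK-cleaved NMP peptides and 3.40 in DMSO. The 7 excitatory neuron markers overlapped, at 287 to 331 in NMP peptides plus APV, against 240 to 297 in NMP peptides, 264 to 315 in PK-cleaved NMP peptides and 257 to 305 in DMSO. The oligodendrocyte lineage markers, 7 of 8 tested, summed to 140.2 to 176 in NMP peptides plus APV, against 121 to 139.9 in NMP peptides, 131 to 136 in PK-cleaved NMP peptides and 131 to 163 in DMSO, so that they overlapped DMSO and neither peptide group. No single marker of these lists was called by limma in any comparison. The part of these levels in the values of Rem2, Stac and the channel genes was not tested.

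The bases just upstream of the starts of Rem2 and Stac, the 2 called partners, and of Cacng5, the channel gene that held an AP-1 motif, are shown from RefSeq on GRCm38.p6, 5′ to 3′ on the strand of each gene. Capitals mark the GC box GGGCGG or its reverse complement CCGCCC, and in Cacng5 also the AP-1 motif TGANTCA. The Rem2 stretch is chr14:54475850-54476099 on the plus strand, the Stac stretch chr9:111690349-111690598 on the minus strand, upstream of a start that lies inside the gene span given above, and the Cacng5 stretch chr11:107915056-107915305 on the minus strand. RefSeq gives Cacng5 another start, whose upstream stretch held neither the AP-1 motif nor the GC box and is not shown.
Rem2: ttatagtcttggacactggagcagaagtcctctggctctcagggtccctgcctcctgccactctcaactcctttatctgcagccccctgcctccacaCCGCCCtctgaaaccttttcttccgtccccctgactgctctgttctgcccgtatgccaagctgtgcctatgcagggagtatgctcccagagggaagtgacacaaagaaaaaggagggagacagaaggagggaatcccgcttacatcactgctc
Stac: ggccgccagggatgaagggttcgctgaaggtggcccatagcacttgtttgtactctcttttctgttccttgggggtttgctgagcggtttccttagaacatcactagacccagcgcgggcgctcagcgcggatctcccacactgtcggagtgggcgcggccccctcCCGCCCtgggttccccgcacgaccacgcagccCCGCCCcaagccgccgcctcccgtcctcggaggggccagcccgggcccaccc
Cacng5: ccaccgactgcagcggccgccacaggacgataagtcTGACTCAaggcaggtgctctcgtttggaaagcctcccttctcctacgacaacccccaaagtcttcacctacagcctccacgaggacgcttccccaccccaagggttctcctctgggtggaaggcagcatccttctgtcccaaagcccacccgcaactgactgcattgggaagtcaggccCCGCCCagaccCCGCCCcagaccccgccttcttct
Rem2 held 1 GC box and Stac 2, and neither held the cAMP response element TGACGTCA, the AP-1 motif or the early growth response motif GCGTGGGCG in these letters.

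The upstream stretches of the channel genes themselves were described in the same way. RefSeq gave 41 starts for 30 of the 39 genes, searched on both strands. The cAMP response element was in 0 of 41, against 1.55% of all 32851 upstream stretches of the same length, and the shorter motif TGACG, which lies inside the full element, in 14.6% against 17.8%. Its holders were Cacna1b, Cacna1c, Cacna1i, Cacna2d1, Cacnb2 and Scn10a. The AP-1 motif was in 2.44% against 6.75%, in Cacng5. The GC box was in 36.6% against 32.7%, and the early growth response motif, which shares letters with the GC box, in 2.44% against 0.536%, in Scn7a. These matches describe letters in the stretch and no binding was measured.

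Apart from the groups of Rem2 and Stac, the partner groups held no called gene in any comparison. Among them were the AMPA receptor subunits and cornichons, which the TARPs accompany, with 6 tested and a median difference of 0.10 in NMP peptides plus APV against NMP peptides. The 7 FGF homologous factors and initial segment scaffold genes, which place and gate sodium channels at the axon initial segment, had a median of 0.01 in the same comparison and of 0.27 in NMP peptides plus APV against PK-cleaved NMP peptides, where the AMPA receptor group had 0.08. Fgf13 had a difference of −0.37 in NMP peptides plus APV against DMSO (SE 0.09, limma adjusted p = 0.107). In the group that holds Stac, Cabp1, a calmodulin-like calcium sensor that binds calcium channels, had −0.48 in NMP peptides plus APV against NMP peptides (SE 0.13, limma adjusted p = 0.081). Fgf13 and Cabp1 were named after their values were seen. The 5 presynaptic scaffold genes, which tether calcium channels near vesicles, had medians of −0.12 in bicuculline against DMSO and 0.11 in NMP peptides plus APV against NMP peptides.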

How the data were processed

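The 14 total RNA libraries were sequenced as paired-end reads, per the labels' protocols. The authors deposited 1 table of log2 signals. Its header names only the libraries, so scale and normalisation were read from the values. Each library has the same median (2.19) and the same highest value, the mark of quantile normalisation. Base 2 and a scale per exon length were read from signals that, raised to base 2 and multiplied by exon length, sum to between 1180000 and 1270000 per library, against at least 8350000 with base e. Only the base was varied, and a scale without exon length was not set beside it. The submitters' processing notes name GRCm38.p6 as build. For aligner, counter, annotation and strand, nothing is given in the sources used here. After such normalisation a change in total RNA could not be seen.

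Features were ranked by mean and the lowest 40% dropped, leaving 10877 genes. One mean per group was fitted over the 14 libraries in R 4.3.3 by limma 3.58.1 (moderated variances with a trend on level, two-sided), with Benjamini-Hochberg adjustment in each of 8 comparisons. The procedure was tested on simulated data. Named genes were the called members, the 5 with the smallest p, the 3 highest and 3 lowest by level, and the called partners. The members and lists were chosen with earlier results of these data known. Positions and upstream bases are from RefSeq, and exon overlaps from GENCODE. Replicate numbers were taken to pair groups where each of 3 pairs correlated above 0.1 in deviations across genes, which held for NMP peptides with PK-cleaved NMP peptides (0.51, 0.499 and 0.613). The main fit held no term for replicate, so its p-values and SE for these groups are unpaired, and pairing entered only through the replicate block below. The alternatives were other filters, median centring, a replicate block, array weights, a fit without the variance trend or of only the compared groups, and leaving out each library. Removing a trend on gene length, omitting the 4 libraries highest in Gfap and applying the alternatives to partners were chosen after seeing the data. Of the channel genes, 2 entered the fits and counts and are not reported here by name or drawn.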

Additional observations from a re-analysis of the deposited data

How the results depend on the processing

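The count of 0 channel genes called was the same in each of 116 alternatives over the 8 comparisons, the replicate block included. The median difference over the channel genes moved by less than the spread between replicates in each. Leaving out a library tends to move a group mean by less than that spread, so this limit is loose. The median ran from −0.19 to 0.08 in bicuculline and −0.18 to 0.02 in NMP peptides, each against DMSO. It also changed sign in the other comparisons, except NMP peptides plus APV against each peptide group, where it stayed above 0. The count of called partners moved. In NMP peptides plus APV against DMSO (1 called) it was 0 with the lowest 60% dropped, 0 with only the compared groups, 2 with array weights, 0 without the 4 libraries highest in Gfap and between 0 and 1 when a library was left out. In NMP peptides plus APV against NMP peptides (2 called) it was 1 with the lowest 60% dropped, 5 with array weights and 2 when any library was left out. In NMP peptides plus APV against PK-cleaved NMP peptides (2 called) it was 1 with the lowest 60% dropped, with only the compared groups and without the 4 libraries highest in Gfap, 4 with the gene length trend removed and between 1 and 2 when a library was left out. Dropping the lowest 60% removes Stac from the test, and the other causes were not tested. With the replicate block 1, 2 and 2 partners were called in these 3 comparisons, as without it, and the block changed no other call of a channel gene or partner. It gave 0 called genes over the whole table in NMP peptides against DMSO (2 without it), 32 in NMP peptides plus APV against DMSO (68 without it) and 91 in NMP peptides plus APV against PK-cleaved NMP peptides (151 without it). In NMP peptides plus APV against NMP peptides, Stac passed in 14 of 14 alternatives (adjusted p from 0.000486 to 0.0172) and Rem2 in 15 of 15 (0.000477 to 0.0243). Against PK-cleaved NMP peptides each passed in 12, of 14 for Stac and of 15 for Rem2, and Stac had an adjusted p of 0.0545 with only the compared groups and 0.0602 without the 4 libraries highest in Gfap. Rem2 in NMP peptides plus APV against DMSO passed with array weights (adjusted p = 0.0276). Over the whole table the counts of called genes ranged from 27 to 55 in bicuculline against DMSO (51), 0 to 10 in NMP peptides against DMSO (2), 0 to 1 in PK-cleaved NMP peptides against DMSO (0), 5 to 104 in NMP peptides plus APV against DMSO (68), 57 to 615 against NMP peptides (156) and 53 to 571 against PK-cleaved NMP peptides (151), 1 to 11 in NMP peptides against PK-cleaved NMP peptides (9) and 4 to 38 in bicuculline against NMP peptides (19). Where leaving out a library kept 1 in DMSO, that library is assumed to vary like the others. Read depth is unknown, so the precision of genes with low signal could not be given from counts.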

Other observations

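The RGK small GTPases include Gem and Rrad beside Rem2, and both are known to reduce calcium channel current. Rrad lay below the filter and was chosen after its values were seen. Its libraries had −0.31, −0.34 and 1.51 in bicuculline, against −1.12 and −1.56 in DMSO, so the bicuculline libraries lay above both DMSO libraries, with replicate 3 far above the other two. With no filter the difference was 1.63 on the log2 scale (SE 0.57) and did not pass (limma adjusted p = 0.972). Gem had 0.48, 0.93 and 1.41 in bicuculline libraries, against 0.58 and 0.34 in DMSO libraries, which overlap, and its difference of 0.48 did not pass either (SE 0.27, limma adjusted p = 0.997). In NMP peptides against PK-cleaved NMP peptides, Gem had 0.22, 0.83 and 1.00, against 0.26, −0.26 and 0.41, a difference of 0.55 (SE 0.25) with an unadjusted p of 0.0426 and a limma adjusted p of 1.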
